A study of Mus musculus with 4 samples.

Results

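Spots that the authors' deposited tables assign in part to the glutamatergic type CR (column Glutamatergic_CR) were examined in 4 sagittal mouse brain sections measured by spatial transcriptomics. CR is the usual short form for Cajal-Retzius cells. A spot was counted as a CR spot when its deposited CR value was above 0, which held for 664 of 14809 spots. The deposited values are fractions of a spot, given here in percent, and a spot is a small region that can hold several cells or parts of cells. All mice were wild type of strain C57. The 4 groups were a control given saline, a resilient mouse given saline, a susceptible mouse given saline, and a susceptible mouse given ketamine intraperitoneally at 10 mg/kg and sampled 7 days later. Resilient and susceptible mice had gone through CSDS, the short form of chronic social defeat stress, and were told apart by their behaviour in a social interaction test. Each group had 1 section, so no comparison between sections carries a test, and intervals cover counting error over spots only. The sources used here do not give age, sex or the method that assigned the types.

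Cajal-Retzius cells are early-born neurons that settle in the outermost cortical layer and secrete reelin, a protein that guides the layering of later-born neurons. Most of those in the mouse neocortex die in the first weeks after birth, and more persist in the hippocampus, along the hippocampal fissure and the outer layer of the dentate gyrus. Spots of adult brain that hold them would therefore be looked for at the cortical surface, beside the meninges, or in the hippocampus. The tables hold no genes, so reelin and other markers could not be read, and the label was checked through the clusters and the cell types found with it.

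With the sections pooled, the CR label was rare in the clusters that the other types tie to the hippocampus, the meninges and the cortical layers. CR was held by 8 of the 634 spots of the cluster in which dentate gyrus and CA1 neurons were concentrated (cluster 10), by 3 of the 307 spots of the cluster led by vascular leptomeningeal cells (cluster 12), and by 8 of the 4525 spots of the clusters in which cortical layer types were concentrated (clusters 2, 6 and 9). These 5 clusters took 36.9% of all spots and 2.86% of the CR spots, and clusters 2, 6 and 9 alone took 30.6% and 1.20%. In the control section cluster 10 was not low, with CR in 2.31% of its spots against 2.17% of the whole section. Low pooled rates were not particular to these 5 clusters. CR was in 10 of the 1193 spots of cluster 3, 8 of the 999 of cluster 5 and 1 of the 238 of cluster 14. These rates were lower than those of clusters 10 and 12. Clusters 1, 4 and 13 took 28.7% of all spots and 68.4% of the CR spots. Their leading types were oligodendrocytes and astrocytes (cluster 1), astrocytes and the long-range GABAergic type Sst_Chodl (cluster 4), and astrocytes with oligodendrocytes (cluster 13). L2_IT_RSPv, named for layer 2 of the ventral retrosplenial cortex, came next in clusters 1 and 4, with mean shares of 15.2% and 14.8%, and vascular leptomeningeal cells had 7.92% of cluster 13. Where clusters 1, 4 and 13 lay in the tissue was not analysed here, so whether they include the outermost cortical layer or the hippocampal fissure was not tested. These values cannot settle whether the name of the type holds for these spots. They are called CR spots below, after the column that chose them.

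The control section had 81 CR spots among 3733 (2.17%, exact Clopper-Pearson 95% interval 1.73 to 2.69). The resilient section had 207 among 4156 (4.98%, 4.34 to 5.69), the susceptible section 210 among 3443 (6.10%, 5.32 to 6.95) and the ketamine-treated section 166 among 3477 (4.77%, 4.09 to 5.54). The control interval lay below the other 3, which overlapped between the resilient section and each of the others, and between the susceptible and ketamine-treated sections. Among the 67 types, CR had rank 22 by mean share for control, 10 for resilient, 11 for susceptible and 13 for ketamine-treated. Among the 47 glutamatergic types its rank was 13, 6, 8 and 9 in that order.

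Most CR spots were mixed. The median CR share of a CR spot was 33.0% for control (lowest 14.8%), 36.9% for resilient (lowest 12.9%), 36.4% for susceptible (lowest 15.6%) and 34.9% for ketamine-treated (lowest 14.3%), and the highest was 100.0% in every section. The quartiles lay lower for control, at 23.6 and 41.4%, against 29.05 and 50.2%, 29.3 and 49.1%, and 27.9 and 48.4% in the other sections. No spot had a CR share between 0 and 10%, so the rule's threshold of 0 separates these kept shares from exact zeros, and smaller shares cannot be seen in these tables.

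A small set of spots was CR and nothing else. These whole-CR spots numbered 2 for control, 20 for resilient, 29 for susceptible and 17 for ketamine-treated, or 2.47%, 9.66%, 13.8% and 10.2% of the CR spots. Among typed spots without CR, 21.8%, 21.5%, 27.7% and 25.9% were whole spots of 1 type. Those spots were not chosen for holding a given type, so the shares are not like for like. Below the whole-CR spots lay a gap. The next highest CR share was 61.1% (control), 63.6% (resilient), 64.2% (susceptible) and 59.8% (ketamine-treated). For comparison, the highest share of any type short of a whole spot was between 85.8% and 88.8% in the 4 sections. Of the 68 whole-CR spots, 28 lay in cluster 4, 11 each in clusters 1 and 8, and 9 in cluster 13, all 9 of them susceptible.

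**Figure D1:**
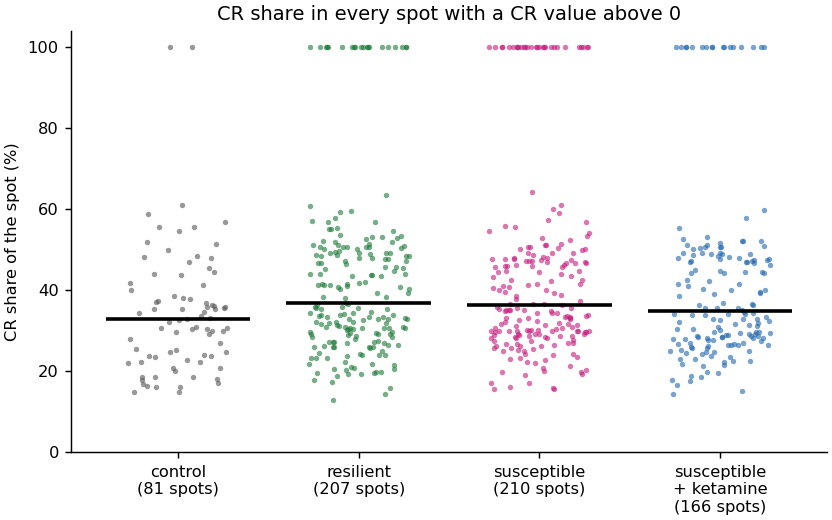
CR share of the spot in percent (vertical axis) for every spot with a CR value above 0, by section; each point is a spot, points are spread sideways for legibility, and the black line is the median. Medians lie between 33.0% and 36.9%, and no spot lies between 64.2% and 100.0%.

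CR had the highest share of its spot in 202 of the 664 CR spots. It led 18 of the 81 control CR spots (22.2%, 95% interval 13.7 to 32.8), 67 of the 207 resilient (32.4%, 26.05 to 39.2), 75 of the 210 susceptible (35.7%, 29.2 to 42.6) and 42 of the 166 ketamine-treated CR spots (25.3%, 18.9 to 32.6). Astrocytes led 131 of the CR spots, oligodendrocytes 123, Sst_Chodl 79 and L2_IT_RSPv 42. The leading type differed by section. Oligodendrocytes led 28 of the 81 control CR spots, more than CR itself, and Sst_Chodl led 43 of the 207 resilient CR spots, second to CR.

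With the sections pooled, clusters 4 and 13 held CR at the highest rates among the 13 clusters that had 20 or more spots from each section. Cluster 4 had 11 CR spots among 72 for control (15.3%, 95% interval 7.88 to 25.7) and 113 among 426 for resilient (26.5%, 22.4 to 31.0). It had 53 among 254 for susceptible (20.9%, 16.04 to 26.4) and 51 among 311 for ketamine-treated (16.4%, 12.5 to 21.0). The resilient and ketamine-treated intervals did not overlap, and all other pairs did. This cluster held 34.3% of all CR spots, and 54.6% of those of the resilient section. Its CR spots had median CR shares of 44.5%, 41.7%, 42.6% and 44.4%, above the section medians in every section.

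In cluster 13, whose next leading types after astrocytes and oligodendrocytes were Meis2 GABAergic neurons and vascular leptomeningeal cells, CR was found in 7 spots among 38 for control (18.4%, 7.74 to 34.3) and in 2 among 32 for resilient (6.25%, 0.766 to 20.8). It was found in 38 among 122 for susceptible (31.1%, 23.1 to 40.2) and in 12 among 68 for ketamine-treated (17.6%, 9.47 to 28.8). The susceptible and resilient intervals did not overlap. Cluster 13 was also larger in the susceptible section, so 18.1% of susceptible CR spots lay there, against 8.64% (control), 0.966% (resilient) and 7.23% (ketamine-treated).

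Cluster 1, the largest cluster, held CR in fewer of its spots but in many in all. The counts were 24 among 929 for control (2.58%, 1.66 to 3.82), 41 among 885 for resilient (4.63%, 3.34 to 6.23), 65 among 605 for susceptible (10.7%, 8.39 to 13.5) and 37 among 501 for ketamine-treated (7.39%, 5.25 to 10.04). The susceptible interval lay above those of the control and resilient sections, and the ketamine-treated interval above that of the control. These are intervals over spots of 1 section each, and the groups were not tested against each other. Cluster 1 took 29.6%, 19.8%, 31.0% and 22.3% of the CR spots of the 4 sections, in the same order, with median CR shares of 29.5 to 34.5%.

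The other clusters with at least 5% of the CR spots of some section were 5, 7, 8, 11 and 16. In cluster 8, led by astrocytes and with many spots given no type, CR was in 3.61% of control, 5.78% of resilient, 7.26% of susceptible and 13.3% of ketamine-treated spots, with intervals that all overlapped. Cluster 11, led by oligodendrocytes and astrocytes, held CR in 6.80%, 5.49%, 13.9% and 9.47% of its spots, again with overlapping intervals. Cluster 16 had no control spots and 10 resilient spots, none with CR, and held CR in 12 of 81 susceptible and 11 of 82 ketamine-treated spots. Cluster 15, led by oligodendrocytes and astrocytes, fell below this minimum and held CR in 4 of its 76 control, 7 of 79 resilient, 3 of 29 susceptible and 4 of 30 ketamine-treated spots. Its resilient rate, 8.86%, was above that of cluster 13. In cluster 7, where oligodendrocytes made up most of each spot, CR was in 10 of 249 control, 5 of 231 resilient, 5 of 241 susceptible and 11 of 239 ketamine-treated spots. Cluster 5 took 5 of the 81 control CR spots and 3 of those of the other sections together.

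**Figure D2:**
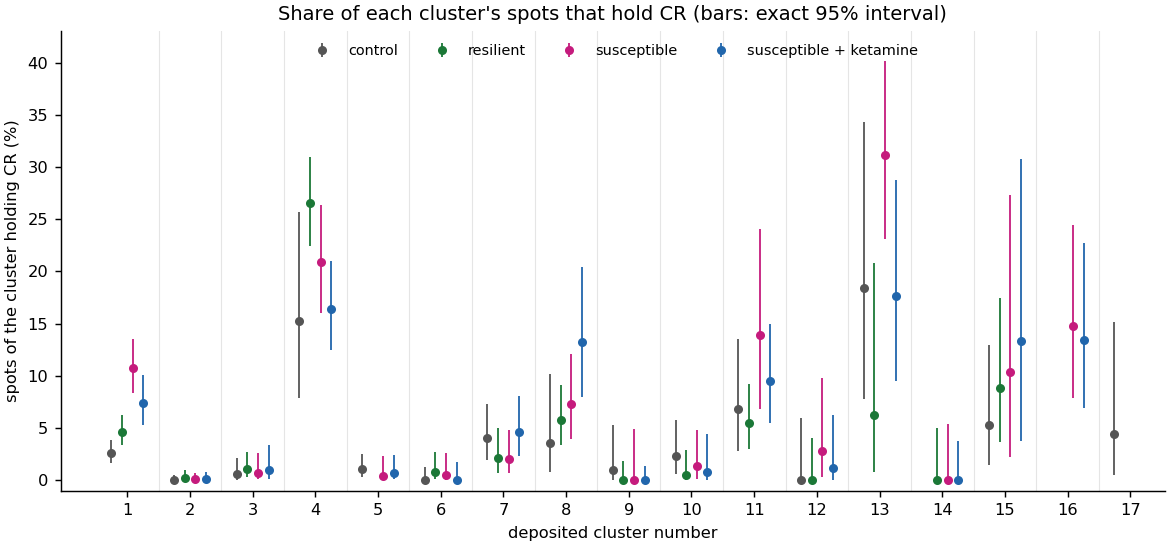
Share of the spots of each deposited cluster that hold CR in percent (vertical axis) by cluster number (horizontal axis) and section (colour); points are shares, bars are exact 95% intervals, and clusters with under 20 spots in a section are left out for it. Cluster 4 lies between 15.3% and 26.5% in all sections, while clusters 2, 6, 9 and 10 hold CR in at most 2.31% of their spots.

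Reference types with a known place were compared with CR in clusters chosen as rich in those types. High shares of the reference types there were therefore set by the choice. None of these types is named for the outermost cortical layer or the hippocampal fissure. The comparison thus cannot show whether the clusters resolve those places. Dentate gyrus granule neurons (DG) had 45 of 51 control spots (88.2%), 60 of 65 resilient (92.3%), 46 of 50 susceptible (92.0%) and 28 of 33 ketamine-treated spots (84.8%) in cluster 10. CR had 4 of 81 control spots (4.94%), 1 of 207 resilient (0.483%), 2 of 210 susceptible (0.952%) and 1 of 166 ketamine-treated spots (0.602%) there. The cluster made up 4.63%, 4.60%, 4.27% and 3.54% of the sections, so CR was near the section's rate in the control and below it in the others. The control interval for CR, 1.36 to 12.2%, included the section's rate, and the upper limits in the other sections were 2.66%, 3.40% and 3.31%.

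Vascular leptomeningeal cells (VLMC), fibroblast-like cells of the meninges, had 50.5% of their control, 56.8% of their resilient, 55.0% of their susceptible and 57.0% of their ketamine-treated spots in cluster 12. CR had 0 of 81 control, 0 of 207 resilient, 2 of 210 susceptible and 1 of 166 ketamine-treated spots there. The upper 95% limits were 4.45%, 1.77%, 3.40% and 3.31%, against section rates of 1.61%, 2.14%, 2.06% and 2.50%. Only in the resilient section was the limit below the section's rate. L2_3_IT_CTX, intratelencephalic neurons of cortical layers 2 and 3, had 74.3 to 82.7% of their spots in cluster 6, where CR had 0, 2, 1 and 0 spots in the control, resilient, susceptible and ketamine-treated sections.

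**Figure D3:**
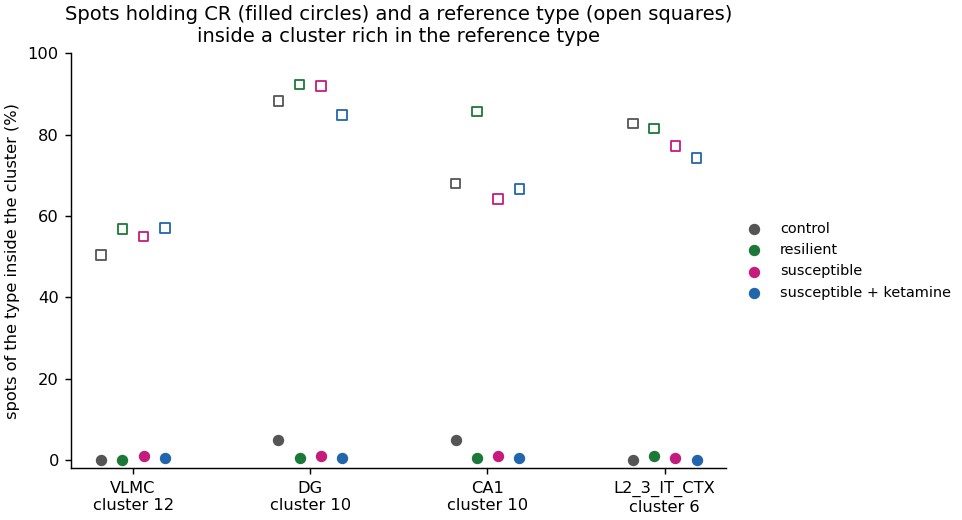
Percent of the spots holding a reference type (open squares) and of the spots holding CR (filled circles) that lie inside a cluster rich in that reference type, by section (colour). The squares lie between 50.5% and 92.3% and the circles between 0 and 4.94%.

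Types sharing a spot with CR were counted next. Of the 66 other types, 50 were found in at least 1 CR spot and 16 in none, among them SUB and CT_SUB of the subiculum and the neocortical types L4_5_IT_CTX, L5_NP_CTX and L6_IT_CTX. The most frequent single combinations were CR with astrocytes only (72 spots), CR with Sst_Chodl only (65), CR with oligodendrocytes only (51) and CR with both glial types (43). Together 158 combinations occurred, the whole-CR spots being 1 of them. CR spots kept more types than other spots that were given a type: 2.80 against 2.29 (control), 2.56 against 2.35 (resilient), 2.51 against 2.13 (susceptible) and 2.53 against 2.20 (ketamine-treated). CR itself is 1 of these, so a CR spot had fewer places left for other types. A spot with more types is also likelier to hold any given type. The higher numbers therefore cannot show a trait of CR.

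Astrocytes, the glia that support synapses and vessels, and oligodendrocytes, which wrap axons in myelin, were the most frequent partners over the 4 sections together, while in the resilient section Sst_Chodl was the most frequent. Astrocytes were in 36 of 81 control, 63 of 207 resilient, 86 of 210 susceptible and 70 of 166 ketamine-treated CR spots. Spots without CR from the same clusters of the same section gave expected numbers of 39.9, 100.4, 114.3 and 93.5. Observed numbers were lower in all 4 sections, with a ratio of 0.733 over all. Oligodendrocytes were in 46, 48, 49 and 47 CR spots, against 46.5, 52.5, 66.5 and 48.7 expected. Over all 66 types, CR spots held 1040 type occurrences against 1277 expected, a ratio of 0.814, and single ratios are read against this value.

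Sst_Chodl, a rare somatostatin type with long-range axons, stood above expectation in every section, although its own cluster was already taken into account. It was in 12 control CR spots against 4.38 expected, 81 resilient against 68.5, 34 susceptible against 24.6 and 37 ketamine-treated against 28.3. The exact interval lay above the expected share in the control only. In the resilient, susceptible and ketamine-treated sections it included that share, and the ketamine-treated interval was 16.2 to 29.4% of CR spots. With other spots matched to the same cluster and the same number of types besides CR, the 4 ratios were 3.35, 1.27, 1.78 and 1.57. Ndnf_HPF, an interneuron type named for the hippocampal formation, was also above in all sections, with 46 CR spots against 37.5 expected, and its matched ratios were 1.36, 1.46, 1.65 and 1.78. Against all other typed spots of the section, without regard to cluster, 25 types had enough spots, of which 2 were at least 1.5 times above in all 4 sections (8.0% called) and 11 below (44.0% called). The 2 above were Sst_Chodl and Ndnf_HPF. Sst_Chodl was 8.01, 6.06, 3.59 and 3.84 times as frequent in CR spots, and Ndnf_HPF 1.97, 2.87, 2.62 and 2.83 times.

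Of 20 types with at least 10 observed or expected CR spots, none was at least 1.5 times above expectation in all 4 sections (0.0% called), and 7 were at least 1.5 times below it in all 4 (35.0% called). Of the 7, 3 were cells of vessels or meninges. Endothelial cells (Endo), which line blood vessels, were in 3 CR spots against 18.6 expected, smooth muscle cells (SMC) in 2 against 14.5, and VLMC in 9 against 25.1. Microglia (Micro), the resident immune cells, were in 7 against 21.1. Of the others, V3d, a glutamatergic type whose name the sources used here do not explain, was in 2 against 16.4. L2_IT_RSP_ACA, named for layer 2 of retrosplenial and anterior cingulate cortex, was in 1 against 11.5, and L2_IT_RSPv in 78 against 139.6. Against all other typed spots L2_IT_RSPv was in 78 against 83.9. Its ratios there were 0.614 (control), 0.540 (resilient), 1.17 (susceptible) and 1.17 (ketamine-treated). With spots matched on the number of types besides CR, 3 of the 7 (V3d, Endo and Micro) were still 1.5 times below in all 4 sections, and the other 4 were below 1 in all 4 by less in at least 1 section. Perivascular macrophages (PVM) and pericytes (Peri), the other types of vessels and meninges, were not among the 7. In the matched comparison PVM was in 7 CR spots against 3.49 expected, above in 3 of the 4 sections. Peri was in 6 against 7.94, above in 2 sections and below in 2.

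The partners also depended on the cluster. All 31 CR spots of cluster 7 held oligodendrocytes. In cluster 4, Sst_Chodl was in 134 of 228 CR spots (58.8%) and astrocytes in 52 (22.8%). In cluster 13, astrocytes were in 39 of 59 CR spots, OPC, the precursors that divide and form new oligodendrocytes, in 16, and Meis2 neurons in 15. In cluster 16, L2_IT_ENTl, named for layer 2 of the lateral entorhinal cortex, and astrocytes were each in 13 of 23.

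OPC and Meis2 lay on opposite sides of expectation in different sections. OPC was in 14 susceptible CR spots against 5.59 expected and in 4 ketamine-treated ones against 3.07. It was in 1 control spot against 0.961 and in 0 resilient spots against 2.72. Meis2 was in 7 resilient CR spots against 2.96 expected, but in 3 control spots against 4.49, 19 susceptible against 27.3 and 6 ketamine-treated against 11.3. The exact interval for OPC in the susceptible section, 3.69 to 10.9% of CR spots, lay above the 2.66% expected, and the resilient interval, up to 1.77%, included the 1.31% expected. The interval for Meis2 in the resilient section, 1.37 to 6.84%, included the 1.43% expected. The difference between sections was not tested. Pvalb, the fast-spiking parvalbumin interneurons, was in 32 CR spots against 44.6 expected, with ratios of 0.547 and 0.492 in the control and resilient sections and 1.02 and 0.939 in the susceptible and ketamine-treated sections. L5_PT_RSP_ACA, layer 5 pyramidal-tract neurons, was in 36 against 41.04, and NP_SUB, near-projecting subicular neurons, in 20 against 21.1. With spots matched on the number of types besides CR, the ratios over all were 1.07 (Pvalb), 1.32 (L5_PT_RSP_ACA) and 1.21 (NP_SUB). Pvalb was then above 1 in 2 sections, and L5_PT_RSP_ACA and NP_SUB in 3 each. The matched ratios of Meis2 were 0.771 (control), 2.79 (resilient), 1.08 (susceptible) and 0.556 (ketamine-treated).

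**Figure D4:**
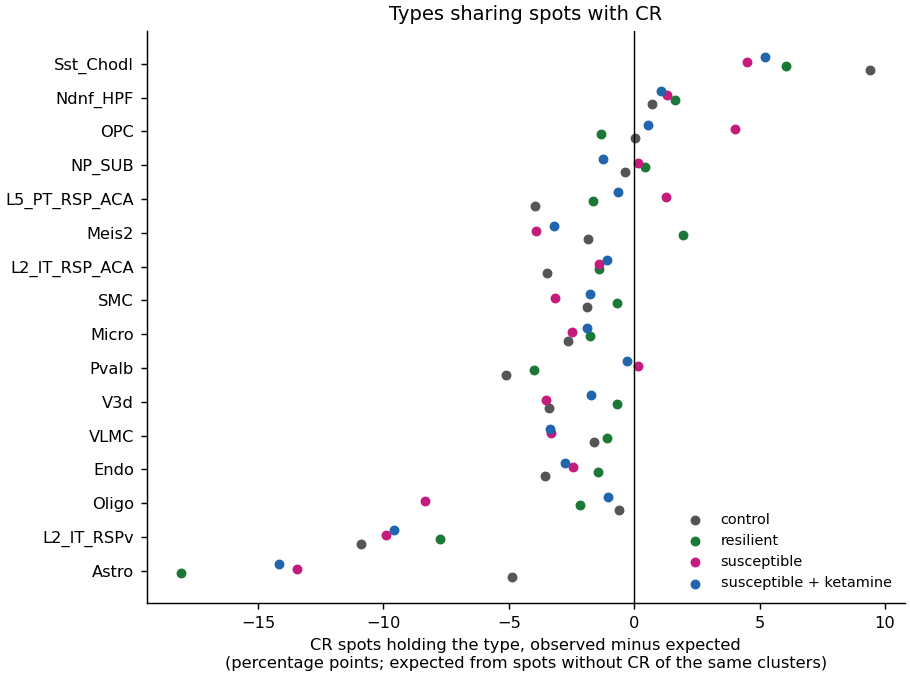
Percent of CR spots holding each type minus the percent expected from spots without CR of the same clusters (horizontal axis, percentage points), for the 16 named types and by section (colour). Sst_Chodl lies above 0 in all 4 sections, and astrocytes and L2_IT_RSPv lie furthest below.

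Lists of types by the region in their name were set beside the CR spots. The 12 types named for the hippocampal formation were in 74 CR spots, against 73.8 expected from all other typed spots of the sections. Most of these were Ndnf_HPF (46 spots) and NP_SUB (20 spots). The list went by parts of the type name, and types with RHP or PPP in the name, such as L6b_RHP and L5_PPP, were outside it. The 5 types of dentate granule and CA pyramidal neurons, a shorter list made after the values were seen, were in 4 control, 1 resilient, 2 susceptible and 0 ketamine-treated CR spots, against 3.64, 10.05, 9.39 and 5.21 expected. The 5 types of vessels and meninges were in 24 CR spots against 61.9, lower in all 4 sections. The 17 deep-layer types were in 76 against 218.2 and the 12 upper-layer types in 106 against 202.8, also lower in all 4. Of the upper-layer spots 78 were L2_IT_RSPv, and without it the remaining 11 types were in 29 CR spots against 121.7. The 11 GABAergic types were in 260 CR spots against 150.2, higher in all 4, and 164 of these spots held Sst_Chodl.

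Compared with spots of the same clusters, most of these differences were smaller. The hippocampal list was at 74 against 74.02, the deep-layer list at 76 against 72.98, and the GABAergic list at 260 against 245.6. The upper-layer list of 12 types stayed lower in all 4 sections, at 106 against 168.5. Without L2_IT_RSPv it was at 29 against 31.7. The vessel and meninges list also stayed lower in all 4 sections, at 24 against 63.1. The 10 entorhinal types turned from 55 against 150.8 over all other typed spots, lower in all 4 sections, to 55 against 48.7 within clusters, higher in 3 of 4. Within clusters the 4 retrosplenial and cingulate types were at 114 against 182.9, of which 78 spots held L2_IT_RSPv.

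The sections differed in how much CR they held. Mean CR share over all spots was 0.753% for control, 2.15% for resilient, 2.74% for susceptible and 2.01% for ketamine-treated. Against the control, the share was 3.64 times as high in the susceptible, 2.85 times in the resilient and 2.67 times in the ketamine-treated section. These 3 ratios share the control section. Of the types with a mean share of at least 1% in either section, the shares that differed by at least 1.5-fold were 33.3% of 21, 39.1% of 23 and 27.3% of 22 in the same order, and the rank of CR by the size of its ratio was 2, 5 and 3.

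Over the same 13 clusters, CR was in a larger share of spots than in the control in 10 for the susceptible, 7 for the resilient and 9 for the ketamine-treated section, and in a smaller share in 3, 5 and 3. In the resilient section much of the difference lay in cluster 4, which had 426 resilient and 72 control spots and held 58.5% of the summed CR share of the resilient section, against 17.3% for control. Cluster 4 had the largest summed CR share over the sections together, so leaving it out is a choice made on the CR values themselves. Without it the resilient share was 0.993% against 0.635%, 1.56 times the control. The susceptible share was then 2.13% and the ketamine-treated share 1.45%. With equal cluster weights the ratios to the control were 2.25 (susceptible), 1.51 (resilient) and 1.79 (ketamine-treated). Clusters hold different parts of the brain, so unequal cutting planes and unequal CR cannot be told apart in the unweighted values.

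Among the stressed mice the ratios to the resilient share depended on cluster 4. The susceptible share was 1.28 times the resilient share, with 43.5% of 23 types past 1.5-fold. Without cluster 4 it was 2.15 times, a larger ratio than that of resilient to control. The ketamine-treated share was 0.732 times the susceptible share, with 14.3% of 21 types past 1.5-fold, and CR was in a smaller share of spots in 7 and a larger share in 5 of the 13 clusters. The ratio of spots holding CR was 0.783, with a counting interval of 0.642 to 0.954. Spots led by CR were 0.555 times as frequent. Without cluster 4 the ketamine-treated share was 1.45%, still below the susceptible share of 2.13%. The ketamine-treated share was 0.936 times the resilient share, with 34.8% of 23 types past 1.5-fold, and this ratio turned to 1.46 without cluster 4 and to 1.18 with equal cluster weights.

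The deposited t-SNE map, in which spots with similar profiles are usually drawn near each other, gave a second view of CR spots. The sources used here do not say which values it was made from. Of the 15 nearest spots of the same section, on average 6.26% held CR around a control CR spot, 23.4% around a resilient, 23.4% around a susceptible and 15.6% around a ketamine-treated CR spot. Around spots without CR the shares were 2.10%, 4.03%, 4.82% and 4.31%. CR spots thus had 2.98, 5.81, 4.85 and 3.61 times as many CR neighbours as other spots. Cluster membership alone would give 6.38%, 16.6%, 16.4% and 11.8%. The observed share was 1.41, 1.43 and 1.32 times this in the resilient, susceptible and ketamine-treated sections, and 0.981 times it in the control. Of the control CR spots 54.3% had no CR neighbour among the 15, against 17.4%, 21.0% and 20.5% in the other sections. For spots without CR the values were 76.4%, 72.6%, 64.7% and 66.1%. CR spots were also the rarest in the control, and the part of that in its value was not tested.

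**Figure D5:**
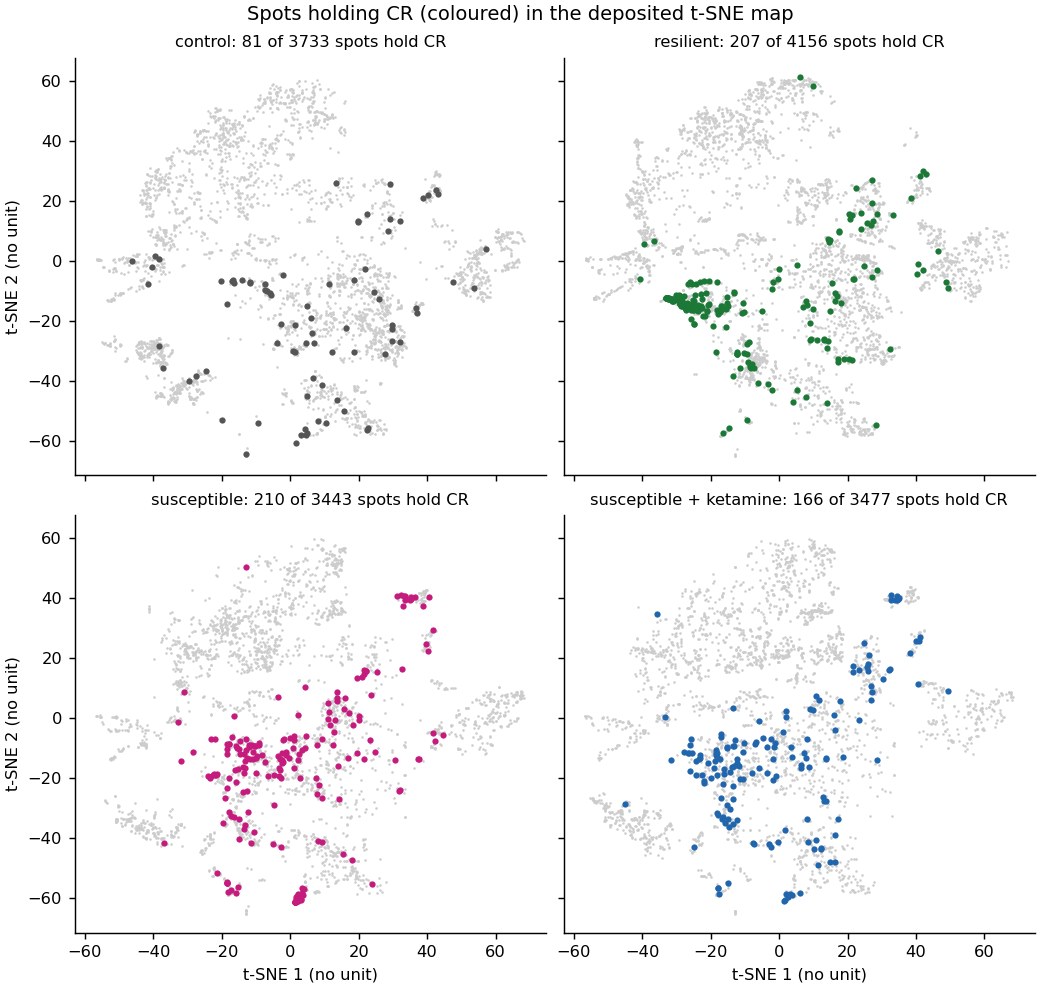
Deposited t-SNE map (both axes without unit), 1 panel for each section; coloured points are spots holding CR and grey points are the other spots of the section. Resilient, susceptible and ketamine-treated CR spots are dense in parts of the map, while the control section has 81 CR spots, the fewest, and 54.3% of them have no CR spot among their 15 nearest.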

How the data were processed

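Per the file headers, the authors deposited for each section the fraction of every spot assigned to 67 cell types or to unknown, with a cluster number, and 1 table of t-SNE coordinates. The genome build was mm10, per the submitters' processing notes. The sources used here do not say how types were assigned and spots clustered. Each barcode suffix of the t-SNE table held exactly the barcodes of 1 section, which joined the tables. Gene counts and positions on the tissue were not analysed here, and depth is unknown.

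A CR spot had a CR fraction above 0. Shares of spots have exact Clopper-Pearson 95% intervals. Expected partner numbers came from spots without CR of the same section and cluster. This calculation was tested on data simulated from the resilient section, with types drawn independently within clusters. The simulation set no limit on the types of a spot. It therefore could not test the effect of CR taking 1 of the places. With 1 section per group no test between groups was run. Named clusters held at least 5% of the CR spots of a section. Named types were the 10 most frequent partners and those 1.5 times above or below expectation in all 4 sections. The members and lists were chosen with earlier results of these data known. Alternatives changed the measure of CR, the cluster weights, the spots used for comparison, the lists, the number of map neighbours and the fold. Python 3.11.15, pandas 2.3.3 and scipy 1.17.1 were used.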

Additional observations from a re-analysis of the deposited data

How the results depend on the processing

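No paired analysis was possible because each group had 1 section, and no replicate could be left out for the same reason. Against the control, equal cluster weights gave CR ratios of 2.25 for susceptible, 1.51 for resilient and 1.79 for ketamine-treated. Counting spots with any CR gave 2.81 for susceptible, and leaving out cluster 4 gave 1.56 for resilient. Cluster 4 was the cluster with the largest summed CR share, so this setting depends on the CR values themselves. Leaving out cluster 4 gave 2.15 for susceptible against resilient and 1.46 for ketamine-treated against resilient, which equal weights put at 1.18. Spots led by CR gave 0.555 for ketamine-treated against susceptible and 0.749 against resilient. Partner types 1.5 times above expectation in all sections numbered 2 against all other typed spots and 1 of the 20 types tested within clusters with shares rescaled outside CR, and those below numbered 11 against all other typed spots, where 25 types had enough spots, or 8 of those 20. With the number of types matched 3 were below. Against all other typed spots, the list ratios were 0.365 (entorhinal), 0.443 (retrosplenial and cingulate), 0.348 (deep layers) and 1.73 (GABAergic). Over spots of at least 2 types they were 0.782 (hippocampal), 0.521 (retrosplenial and cingulate), 0.825 (deep layers) and 0.909 (GABAergic). The shorter hippocampal list gave 0.644, and upper layers without L2_IT_RSPv 0.915. These list settings and the matched setting were added after the data were seen. With 5 t-SNE neighbours the control ratio was 2.16. Set against clusters, the neighbour ratio turned to 0.981 in the control and was 1.41, 1.43 and 1.32 for resilient, susceptible and ketamine-treated. Types past 2-fold numbered 3 for susceptible and 3 for ketamine-treated against control, 3 for susceptible against resilient, 0 for ketamine-treated against susceptible and 5 against resilient. With a minimum mean share of 0.5%, types past 1.5-fold numbered 11 for susceptible against control and 6 for ketamine-treated against susceptible. The causes were not tested. The other 75 settings of these results moved a value by less than its counting interval or a count by less than 1.5 times.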

Other observations

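Barcodes mark places on the array, and the sections shared many of them. The susceptible and ketamine-treated sections had 3304 barcodes in common, of which 53.2% had the same cluster number in both. Of these barcodes 197 held CR in the susceptible section, 160 in the ketamine-treated one and 20 in both, which is 10.2% and 12.5% of each. Independent placement would give 9.54. The control and resilient sections shared 3199 barcodes, 25.8% with the same cluster number, and 6 held CR in both against 2.99. For the other 4 pairs, at most 2.56% of shared barcodes had the same cluster number. Their counts of barcodes with CR in both were 0, 1, 5 and 4, against 2.38, 1.91, 6.97 and 5.85.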
